A study of Mus musculus with 6 samples.

Results

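Platelets and their precursor, the megakaryocyte, carry a small set of surface and granule proteins, and 10 genes for such proteins were followed here across vector, BCR/ABL and imatinib-treated BCR/ABL stem cells. They are the integrin genes Itga2b and Itgb3, the glycoprotein genes Gp9, Gp1ba, Gp1bb, Gp5 and Gp6, the chemokine genes Pf4 and Ppbp, and Vwf. All probe sets that the platform annotation gives to 1 of these symbols alone were used. They numbered 11 of 35877 tested, and they stood for 9 of the 10 genes among 18193 genes in all. Gp1ba had no such probe set and was not analysed here, and 1 probe set shared by Gp1bb and Septin5 was set aside.

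Megakaryocytes arise from haematopoietic stem cells under the control of thrombopoietin and of the transcription factors GATA1, FLI1 and NF-E2. The protein of Itga2b pairs with that of Itgb3 to form the fibrinogen receptor, and the products of Gp1ba, Gp1bb, Gp9 and Gp5 form the receptor for von Willebrand factor. Several of these genes, Itga2b and Vwf among them, are also transcribed in part of the stem cell pool, and mast cells and their precursors carry some of the integrins.

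RNA came from GFP+Lin-c-Kit+Sca-1+ mouse bone marrow cells, a stem and progenitor fraction, on 6 Affymetrix arrays in duplicate for each group. The first group was BCR/ABL-transduced cells treated with imatinib, an inhibitor of the BCR/ABL kinase; the second was BCR/ABL-transduced cells from untreated mice with chronic myeloid leukaemia (CML); the third was cells that carried the empty GFP vector. All 3 groups thus shared GFP and the sort, but the sources used here give no strain, age, imatinib dose or duration. Whether the paired arrays in each group represent separate animals is unstated in the labels, so the p-values reflect array-to-array spread alone, and this could be technical.

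Values are probe set intensities that the authors had scaled to a trimmed mean of 500 on every array, with array medians of 35.6 to 57.2. Log2 levels were computed as log2(intensity + 16) after quantile normalization, so 4 is the lowest possible level. Detection calls were not used here, so dim values and background are not distinguished. Replicates correlated across probe sets at 0.985 with imatinib, 0.989 in untreated BCR/ABL and 0.969 in vector, and vector replicate 2 correlated at 0.981 with imatinib replicate 2. Kit, a gene of the sort, had log2 levels of 11.38 and 11.39 with imatinib, 10.37 and 10.13 in untreated BCR/ABL and 10.71 and 11.06 in vector. The granulocyte gene S100a9 lay between 12.72 and 14.00 on all arrays, although the sort excluded lineage-positive cells. In these bulk samples, fewer cells of a type and less RNA per cell cannot be told apart.

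The promoters of 4 members are shown because these genes had different profiles over the groups: Itga2b, Gp9 and Pf4 were highest with imatinib, whereas Gp5 was highest in untreated BCR/ABL cells. Each sequence is the 250 bases before a RefSeq transcript start (build GRCm38.p6), read 5′ to 3′ on the gene's strand. Capitals mark matches on either strand to a GATA motif (the letters AGATAA or the letters AGATAG, likewise the letters TGATAA or the letters TGATAG) or an ETS motif (the letters AGGAAG or the letters CGGAAG).
Itga2b, chr11:102469884-102470133, - strand: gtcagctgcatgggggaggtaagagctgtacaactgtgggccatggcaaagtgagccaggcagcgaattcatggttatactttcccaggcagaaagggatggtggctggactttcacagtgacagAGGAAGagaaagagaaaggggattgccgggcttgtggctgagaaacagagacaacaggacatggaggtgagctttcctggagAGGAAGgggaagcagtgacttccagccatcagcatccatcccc
Gp9, chr6:87777820-87778069, + strand: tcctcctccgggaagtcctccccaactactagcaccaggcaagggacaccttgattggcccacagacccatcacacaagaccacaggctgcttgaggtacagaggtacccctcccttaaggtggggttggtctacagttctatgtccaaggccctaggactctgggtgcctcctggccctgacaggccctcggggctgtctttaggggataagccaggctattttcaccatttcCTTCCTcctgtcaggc
Gp5, chr16:30310782-30311031, - strand: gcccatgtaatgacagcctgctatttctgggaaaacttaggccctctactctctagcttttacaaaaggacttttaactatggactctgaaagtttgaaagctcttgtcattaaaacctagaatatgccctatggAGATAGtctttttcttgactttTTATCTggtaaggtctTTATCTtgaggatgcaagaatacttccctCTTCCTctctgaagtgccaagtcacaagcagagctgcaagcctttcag
Pf4, chr5:90772185-90772434, + strand: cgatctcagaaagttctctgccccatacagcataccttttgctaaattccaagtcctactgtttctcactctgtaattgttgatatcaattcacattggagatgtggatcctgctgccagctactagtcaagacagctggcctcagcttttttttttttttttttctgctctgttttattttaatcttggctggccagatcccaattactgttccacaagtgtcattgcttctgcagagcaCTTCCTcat
Of the 10 genes, 8 had a promoter in the RefSeq table. An ETS match lay in 6 of these 8 windows, against 39.2% of 32851 promoters in the table, and a GATA match in 4 of 8, against 26.5%. The Gp9 and Pf4 windows each held 1 ETS match, that of Gp9 beginning 16 bases before the start and that of Pf4 9 bases before it. The Itga2b window held 2 ETS matches and no GATA match. The Gp5 window held 3 GATA matches, the nearest beginning 77 bases before the start, and 1 ETS match. Among the windows not shown, those of Gp1bb and Ppbp belong to genes whose mean was also highest with imatinib. The Gp1bb window held 1 GATA match and 1 ETS match, and the Ppbp window held no match to either motif. The 2 motifs do not overlap each other in these windows, and a match here describes letters, not a bound site.

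The first question was whether these genes differed in BCR/ABL cells from vector cells. Of the 9 genes, 8 had a higher mean in BCR/ABL cells and Vwf a lower one. The median log2 difference was 1.07, where the median over all 18193 genes was 0.01. With limma 0 of 9 passed at an adjusted p of 0.05 over all probe sets. Itgb3 came closest, with adjusted p = 0.215. Over all genes 0.0989% passed with a higher level and 0.0055% with a lower one. At an unadjusted p under 0.05, 5 of the 9 were higher, where 7.13% of all genes were, and 0 were lower, where 5.54% of all genes were. The arrays of the groups did not overlap for 7 genes that lay higher in BCR/ABL, against 23.9% of all genes, and for Vwf, which lay lower, against 20% of all genes.

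The second question was what imatinib did in BCR/ABL cells. Of the 9 genes, 7 had a higher mean with imatinib than without, with a median log2 difference of 0.54 where that over all genes was -0.01. With limma 0 of 9 passed, as did 0% of all genes in either direction, and the smallest adjusted p was 0.123, for Pf4. At an unadjusted p under 0.05, 3 of 9 were higher (Itgb3, Pf4 and Vwf), where 7.84% of all genes were, and 0 were lower, where 9.15% were. Groups did not overlap for 5 genes that were higher with imatinib, against 24.7% of all genes, and for Gp5, which was lower, against 26.8%. The median of 0.54 depended on single arrays: it was 0.26 without imatinib replicate 1, 0.93 without imatinib replicate 2 and 0.83 without BCR/ABL replicate 1. Centring on array medians put the median over all probe sets at -0.27 in this comparison. Relative to that median the members' median was 0.60, the same as without normalization. Single genes moved unequally between centring and quantile normalization, because only centring shifts all genes of an array equally. Centring called 67 probe sets higher and 1133 lower, where quantile normalization called 0 of 35877, with 2246 higher and 2992 lower at an unadjusted p under 0.05.

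The third comparison, BCR/ABL with imatinib against vector, gave the widest differences, and it shares its arrays with the other two. All 9 genes had a higher mean, by a median of 1.66 on the log2 scale where that of all genes was -0.002, and the 2 groups did not overlap for 8 of 9, against 21.8% of all genes. None lay lower without overlap, where 22.3% of all genes did. At an unadjusted p under 0.05, 5 of 9 were higher, against 8.92% of all genes, and 0 were lower, against 7.66%. With limma 0 of 9 passed (0.077% of all genes passed with a higher level), and Itgb3 came closest with adjusted p = 0.0805. Itgb3 and Pf4 did pass in this comparison when probe sets below the 30th percentile were left out, with adjusted p of 0.0142 and 0.0311, when 1 replaced 16 as the added constant, with 0.0285 and 0.0449, and after centring on array medians, with 0.00347 and 0.0439. Itga2b also passed under that centring (adjusted p = 0.0481). The same centring called 201 probe sets higher and 74 lower, where quantile normalization called 15 and 1.

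**Figure D1:**
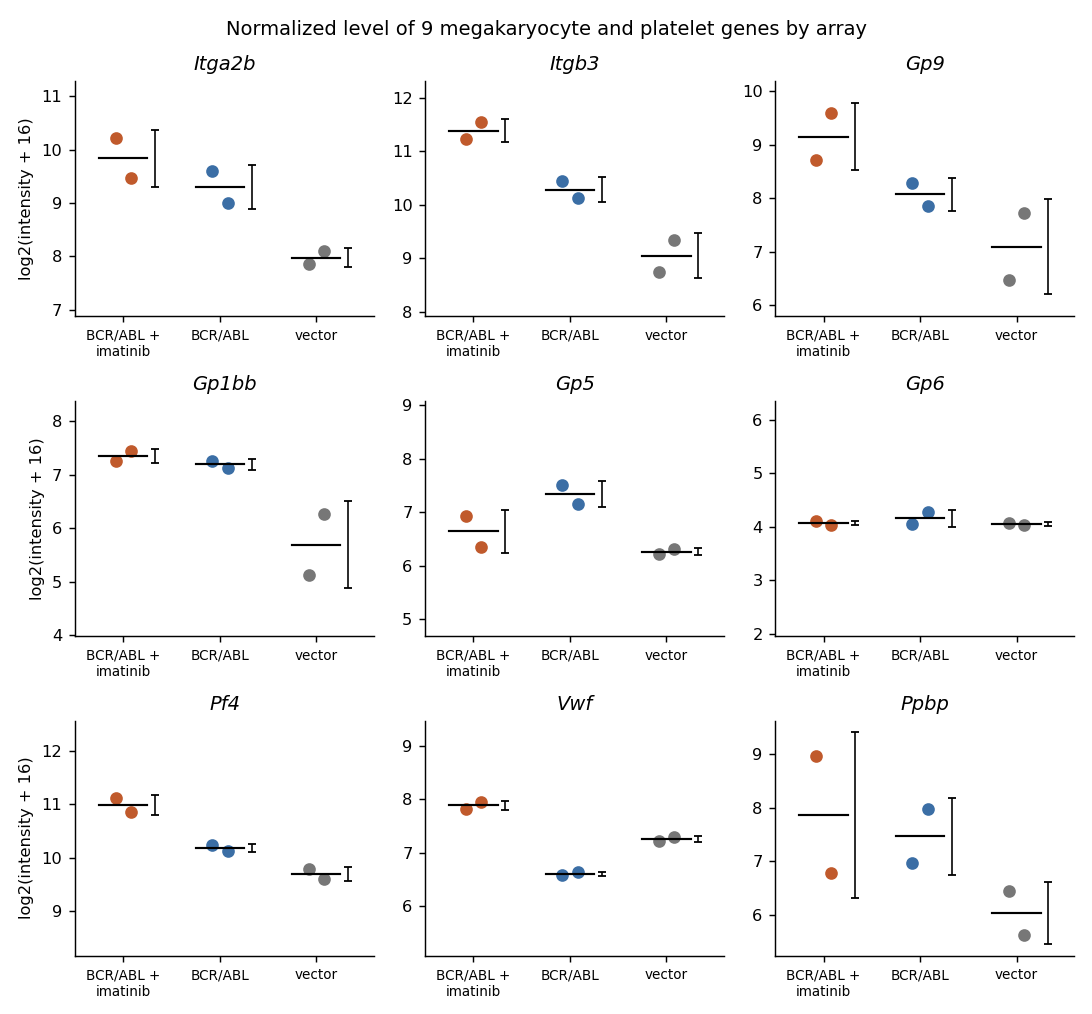
Normalized log2(intensity + 16) of the 9 genes on each of 6 arrays, with imatinib-treated BCR/ABL, BCR/ABL and vector from left to right; points are arrays, horizontal lines are means and bars are SD (n = 2). Every panel spans the same number of log2 units, so that Itga2b, Itgb3, Gp9 and Pf4 descend from left to right, Gp5 peaks in BCR/ABL, Vwf is lowest there, and Gp6 lies near the floor of 4.

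The integrin pair had the smallest p-values among the members in BCR/ABL against vector. Itga2b encodes CD41, the alpha IIb subunit, whose transcript marks the megakaryocyte line. Its intensities were 1179 and 714 with imatinib, 753 and 488 in BCR/ABL and 229 and 247 in vector. Both BCR/ABL groups lay above vector on every array, and the imatinib and untreated arrays overlapped. Its log2 level was 9.30 ± 0.41 in BCR/ABL and 7.98 ± 0.18 in vector (SD, n = 2), a difference of 1.32 (SE 0.33, 2.50-fold, limma adjusted p = 0.293). The difference between imatinib and untreated cells was 0.54 (SE 0.33, adjusted p = 0.542), and that between imatinib and vector cells was 1.86 (SE 0.33, adjusted p = 0.149).

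Itgb3 encodes the beta 3 subunit, CD61, which also pairs with the alpha V integrin subunit in other cells. Its brighter probe set read 2384 and 2894 with imatinib, 1405 and 1103 in BCR/ABL and 420 and 619 in vector. The 3 groups were fully separated in that order. The log2 difference was 1.24 (SE 0.25, 2.36-fold, adjusted p = 0.215) for BCR/ABL against vector and 1.11 (SE 0.25, adjusted p = 0.146) for imatinib against untreated cells. BCR/ABL with imatinib and vector differed by 2.34 (SE 0.25, 5.08-fold). A second, dim probe set of the same gene ran between 2.15 and 37.1 over the 6 arrays. It shared the sign in BCR/ABL against vector, at 0.90 (SE 0.31), but not for imatinib against untreated cells, at -0.10 (SE 0.31).

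Among the glycoproteins that hold von Willebrand factor, Gp9 and Gp1bb encode small subunits needed for the receptor to reach the cell surface. Gp9 had intensities of 408 and 779 with imatinib, 279 and 204 in BCR/ABL and 80.9 and 187 in vector. The 3 groups were again separated, but the vector arrays differed by 1.25 log2 units, where probe sets of similar level differed by a median of 0.46. The Gp9 differences were 0.98 (SE 0.52, adjusted p = 0.537) for BCR/ABL against vector and 1.08 (SE 0.52, adjusted p = 0.419) for imatinib against untreated cells.

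Gp1bb was read by 2 probe sets. The first gave 140 and 180 with imatinib, 119 and 116 in BCR/ABL and 18.0 and 59.2 in vector; the second gave 157 and 216, 59.3 and 58.1, and 9.44 and 60.4 in the same groups. Both BCR/ABL groups lay above vector in normalized level on both probe sets. On the second, however, the nearest arrays of untreated BCR/ABL and vector were level, at a log2 of 6.30 each. In intensity, vector replicate 2 exceeded both untreated BCR/ABL arrays on that probe set. For untreated BCR/ABL against vector the first differed by 1.5 (SE 0.48, adjusted p = 0.355), and the second by 0.89 (SE 0.58, adjusted p = 0.608). The probe sets parted over imatinib, with 0.16 (SE 0.48) for the first and 1.15 (SE 0.58) for the second against untreated cells. On the first, the nearest arrays of imatinib and untreated cells were level, at a log2 of 7.26 each.

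Gp5 encodes the subunit of the same receptor that thrombin cleaves. It had intensities of 108 and 79.0 with imatinib, 148 and 119 in BCR/ABL and 65.2 and 61.4 in vector. Untreated BCR/ABL was the highest group, with no overlap with either of the others. The log2 difference was 1.07 (SE 0.39, 2.10-fold, adjusted p = 0.401) against vector, and that of imatinib against untreated cells was -0.69 (SE 0.39, adjusted p = 0.499). Over all genes 12.4% had this order of separated groups. Gp6 encodes the collagen receptor GPVI, and its probe set did not exceed 2.998 on any array. Its log2 levels stayed between 4.03 and 4.27, next to the floor, so its differences, the widest of them 0.11 (SE 0.10), carry no usable size.

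Pf4 and Ppbp encode chemokines that platelets store in alpha granules, and RefSeq lists them as neighbours on chromosome 5. Pf4 had intensities of 2206 and 1802 with imatinib, 1213 and 1113 in BCR/ABL and 856 and 743 in vector, again in 3 separated groups. Its log2 levels were 10.99 ± 0.19 with imatinib, 10.18 ± 0.08 in BCR/ABL and 9.69 ± 0.13 in vector (SD, n = 2). The differences were 0.49 (SE 0.15, 1.41-fold, adjusted p = 0.350) for BCR/ABL against vector, 0.80 (SE 0.15, 1.74-fold, adjusted p = 0.123) for imatinib against untreated cells and 1.29 (SE 0.15, 2.45-fold, adjusted p = 0.103) for imatinib against vector. Itgb3, Gp9, Gp1bb and Pf4 were thus the 4 of 9 genes with vector lowest, untreated BCR/ABL above it and imatinib highest without overlap, an order found in 2.68% of all genes. For Gp1bb the separation of imatinib from untreated cells was the narrow one given above.

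Ppbp, whose product yields NAP-2, had 489 and 110 with imatinib, 90.7 and 224 in BCR/ABL and 79.5 and 32.5 in vector. The imatinib arrays differed by 2.19 log2 units, where probe sets of similar level differed by a median of 0.35. The difference of BCR/ABL from vector was 1.44 (SE 0.81, adjusted p = 0.556). That of imatinib from untreated cells was 0.40 (SE 0.81), and it was -0.70 without imatinib replicate 1 and -0.11 without BCR/ABL replicate 1.

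Vwf, the gene of the plasma protein that tethers platelets to injured vessel walls, went another way. Its intensities were 215 and 258 with imatinib, 63.9 and 77.5 in BCR/ABL and 147 and 134 in vector. Untreated BCR/ABL was the lowest group and imatinib the highest, and the spread inside each group was small, with SDs of 0.09, 0.04 and 0.05 on the log2 scale. The difference was -0.65 (SE 0.32, 0.636-fold, adjusted p = 0.5) for BCR/ABL against vector and 1.28 (SE 0.32, 2.43-fold, adjusted p = 0.167) for imatinib against untreated cells. Over all genes 9.83% had untreated BCR/ABL below both vector and imatinib without overlap, a share that sets no order between imatinib and vector. Kit likewise had untreated BCR/ABL lowest and imatinib highest, with differences of -0.63 (adjusted p = 0.290) and 1.13 (adjusted p = 0.108) in the same comparisons. Of 6 measured stem cell markers, Kit alone was lower without overlap in BCR/ABL than in vector (20% of all genes). Procr was higher without overlap there, by 0.55 (23.9% of all genes), and 4 of the 6 had a higher mean. Vwf is also made by endothelial cells: of 8 endothelial markers, 4 were higher without overlap for imatinib against untreated cells (24.7% of all genes) and 1 was lower (26.8% of all genes). Their summed intensity was 1835 and 2623 with imatinib, 1729 and 1385 in BCR/ABL and 1351 and 1896 in vector. Cdh5 stayed between 4.58 and 5.06 and Kdr between 4.18 and 5.35 on the log2 scale, close to the floor. Tie1 had 7.41 and 8.21 with imatinib, 7.11 and 7.35 in BCR/ABL and 6.40 and 6.58 in vector. Its 3 groups were separated, with imatinib highest and vector lowest. The highest level on any array was 9.67 for Pecam1, 9.67 for Erg, 8.86 for Tek, 7.91 for Emcn and 6.79 for Plvap. The part of such cells in the Vwf values was not tested.

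**Figure D2:**
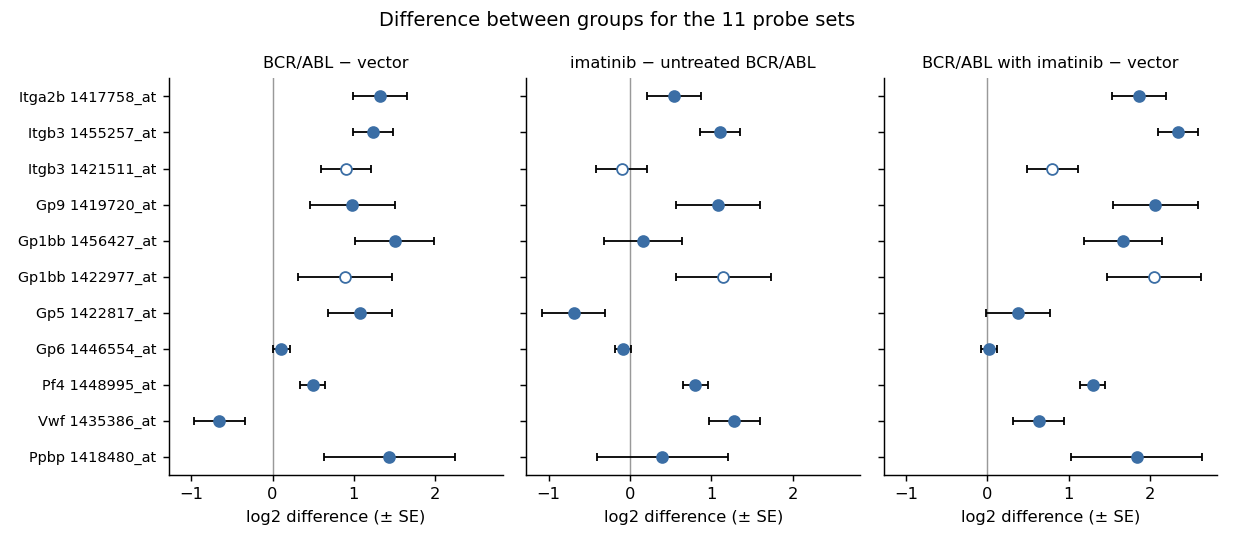
Log2 differences with standard errors for all 11 probe sets, in BCR/ABL minus vector, imatinib minus untreated BCR/ABL and imatinib-treated BCR/ABL minus vector. Filled circles are the brighter or only probe set of a gene and open circles the second one; none passed an adjusted p of 0.05. Vwf alone lies below 0 in the left panel, and Gp5 has the lowest value in the middle panel, at -0.69.

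Centred on each gene's mean over the arrays, the median member lay at 0.60 and 0.56 in the imatinib replicates, 0.18 and -0.03 in BCR/ABL and -0.68 and -0.48 in vector. The summed mast cell and basophil markers had the same order of groups. All 10 of 10 measured markers were higher without overlap in BCR/ABL than in vector, where 23.9% of all genes were, and 8 of 10 were higher without overlap with imatinib than without it (24.7% of all genes), while 1, Mcpt8, was lower (26.8% of all genes). Their summed intensity was 66730 and 53540 with imatinib, 37870 and 37560 in BCR/ABL and 11960 and 6771 in vector. The dimmest marker in the BCR/ABL groups was Tpsab1, at 6.88 on the log2 scale on 1 untreated array; in vector Tpsab1 lay at 4.07 and 4.04, and Mcpt4 at 4.2 on replicate 2, next to the floor. With limma, Gzmb rose by 3.81 (SE 0.26, adjusted p = 0.0217) and Hdc, the histamine-forming enzyme, by 2.35 (SE 0.17, adjusted p = 0.0236) in BCR/ABL against vector. Without either BCR/ABL array both calls ended (adjusted p of 0.258 to 0.490). Without vector replicate 2 they also ended (0.0553 and 0.0657), and that of Hdc ended without vector replicate 1 (0.105). Both also ended with a variance prior that ignored signal level (0.0761 and 0.102). The part of mast cell transcripts in the members' values was not tested.

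The summed granulocyte markers were also lower in vector, by little on replicate 1 and by more on replicate 2. Their sums were 69820 and 70680 with imatinib, 63520 and 70740 in BCR/ABL and 62900 and 37400 in vector, so that vector lay below both other groups, which overlapped each other. Of 9 measured, 5 were higher without overlap in BCR/ABL than in vector (23.9% of all genes) and 0 lower (20% of all genes), and 5 were higher for imatinib against vector (21.8% of all genes). Ltf, Mmp8, Ngp and Camp, granule protein genes, had differences of 2.62, 1.95, 1.79 and 1.73 for BCR/ABL against vector (adjusted p of 0.488 to 0.533), and all 4 were lowest on vector replicate 2. S100a9 and S100a8 differed by 0.58 and 0.56. Elane, Mpo and Prtn3 differed by -0.11, -0.08 and 0.02, with overlapping groups. The part of granulocyte transcripts in the members' values was not tested.

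The 7 measured B cell markers summed to 624 and 1674 with imatinib, 1302 and 2264 in BCR/ABL and 19290 and 3942 in vector, so that the 2 vector arrays stood far apart. Without vector replicate 1 the members' median was 0.93 for BCR/ABL against vector and 1.39 for imatinib against vector. The 6 measured erythroid markers, of a lineage that shares a progenitor with megakaryocytes, summed to between 5560 and 9109 with overlapping groups, and monocyte markers summed to between 11220 and 21070, also with overlapping groups. T cell markers summed to 66.1 and 86.8 with imatinib, 54.5 and 85.3 in BCR/ABL and 929 and 97.3 in vector. The 6 measured stem cell markers summed to 13010 and 16800 with imatinib, 10650 and 9487 in BCR/ABL and 8164 and 13450 in vector, and 5 of 6 were higher without overlap for imatinib against untreated cells, where 24.7% of all genes were.

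**Figure D3:**
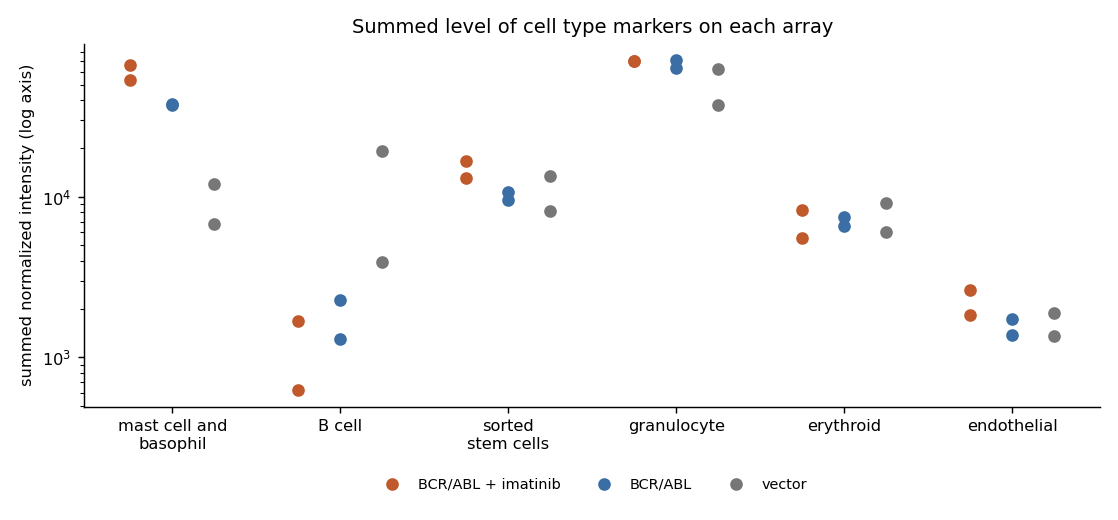
Summed normalized intensity of 6 marker lists on each array (log axis), with BCR/ABL with imatinib, BCR/ABL and vector from left to right within each list; points are arrays. Mast cell and basophil markers descend from imatinib to vector, B cell markers are highest in vector with its arrays far apart, granulocyte markers are lowest in vector, and erythroid markers overlap between all groups.

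Of 13 measured transcription factors that drive megakaryocyte genes, 0 passed with limma in any of the 3 comparisons. At an unadjusted p under 0.05, 2 were higher in BCR/ABL against vector and 0 lower. Over all genes, 7.13% were higher and 5.54% lower at that threshold, which is also the background for the gene lists that follow. The median difference of these factors for BCR/ABL against vector was -0.09. By size of difference the first were Gata2, which acts in stem and mast cells, at 0.59 (adjusted p = 0.126), Mafg, a partner of NF-E2, at 0.59 (adjusted p = 0.290), Meis1 at -0.51 and Ets1 at -0.50. The central factors Gata1, Fli1 and Nfe2, named after their values were seen, differed by 0.10, -0.11 and 0.19 for BCR/ABL against vector and by -0.03, 0.34 and 0.27 for imatinib against untreated cells. In the latter comparison the median of the 13 was 0.16, with Tal1 the highest at 0.72 (adjusted p = 0.118). There 5 were higher without overlap (24.7% of all genes) and 1 was lower (26.8% of all genes). At an unadjusted p under 0.05, 2 were higher with imatinib (7.84% of all genes) and 0 lower (9.15% of all genes). In thrombopoietin signalling 0 of 5 measured genes passed in any comparison, and at an unadjusted p under 0.05 the count for BCR/ABL against vector was also 0. The kinase genes Tyk2 and Jak2 differed by -0.31 and -0.08, the inhibitory adaptor Sh2b3 by 0.26 and Stat5a by -0.13 for BCR/ABL against vector.

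In GPVI and immunoreceptor signalling, 1 of 10 measured genes passed in BCR/ABL against vector, where 0.104% of all genes did, and 0 in the other comparisons. At an unadjusted p under 0.05, 5 of the 10 were higher in BCR/ABL against vector (7.13% of all genes) and 0 lower (5.54% of all genes). Lat, the adaptor that gathers signalling enzymes after GPVI or IgE receptor engagement, had intensities of 1383 and 1385 in BCR/ABL against 314 and 334 in vector, and rose by 2.03 (SE 0.16, adjusted p = 0.0333). This call ended when any single array was left out (adjusted p of 0.0553 to 0.601), with the replicate number as a block (0.0734) and with a variance prior that ignored signal level (0.063). The adaptor Lcp2 differed by 1.12 (adjusted p = 0.0751), the receptor Clec1b, CLEC-2, by 1.07 (adjusted p = 0.414), the GPVI partner chain Fcer1g by 0.43 (adjusted p = 0.401) and Vav3 by -0.37 (adjusted p = 0.640). Lat and Lcp2 differed by -0.42 and -0.34 for imatinib against untreated cells, and Clec1b by 0.90. The regulators of fibrinogen receptor activation, which include both activators and inhibitors, held 0 genes of 8 that passed in any comparison. At an unadjusted p under 0.05, 1 was lower and 0 higher in BCR/ABL against vector. There Apbb1ip differed by 0.40, Rasa3 by -0.40, Rasgrp2 by -0.21 and Gna13 by -0.15.

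Other platelet receptors had a median difference of 0.71 over 15 genes for BCR/ABL against vector, with 0 passed. At an unadjusted p under 0.05, 6 of 15 were higher, against 7.13% of all genes, and 0 lower, against 5.54%. The collagen-binding integrin Itga2 read 108 and 59.7 in BCR/ABL against 1.30 and 0.983 in vector, a difference of 2.64 (adjusted p = 0.119) whose size depends on the added constant. The ADP receptor P2ry1, the thrombin receptor F2rl2 and the adhesion receptor Cd226 differed by 2.00, 1.98 and 1.43 (adjusted p = 0.208, 0.256 and 0.204). With imatinib these 3 were lower than in untreated cells on every array, with differences of -1.97 (adjusted p = 0.128), -1.26 (adjusted p = 0.274) and -1.55 (adjusted p = 0.121), and the list's median was -0.11. In that comparison 6 of the 15 were lower without overlap (26.8% of all genes) and 4 were higher without overlap (24.7% of all genes). The 9 members had a median of 0.54 there, with Itgb3, Gp9 and Pf4 at 1.11, 1.08 and 0.80 and Gp5 at -0.69.

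Granule and secreted genes had a median of 0.43 over 12 genes for BCR/ABL against vector and 0.29 for imatinib against untreated cells, with 0 passed in either. At an unadjusted p under 0.05, 5 were higher and 1 was lower for BCR/ABL against vector (7.13% and 5.54% of all genes). The secretory GTPase Rab27b had differences of 1.42 (adjusted p = 0.263) and 1.18 (adjusted p = 0.188), and coagulation factor V, F5, of 0.90 (adjusted p = 0.290) and 1.2 (adjusted p = 0.123). Both had 3 separated groups, with imatinib highest. F13a1, a transglutaminase that cross-links fibrin, was lowest in untreated BCR/ABL, as Vwf was, at -1.69 (adjusted p = 0.209) and 1.49 (adjusted p = 0.143). Thbs1, thrombospondin, differed by 2.54 (adjusted p = 0.388) for BCR/ABL against vector. Of 9 measured cytoskeleton and proplatelet genes, 0 passed, with 1 higher and 1 lower at an unadjusted p under 0.05 in BCR/ABL against vector. The platelet tubulin Tubb1 differed by 1.65 (adjusted p = 0.354), Myl9 by -1.07, Gsn by 0.74 and Dnm3 by -0.70 for BCR/ABL against vector. Tubb1 was dim, with 50.9 and 81.2 with imatinib, 32.95 and 80.1 in BCR/ABL and 0.253 and 21.4 in vector. Myl9 and Dnm3 lay next to the floor in BCR/ABL. Myl9 read 2.48 and 3.34 there against 69.8 and 5.32 in vector, and Dnm3 0.873 and 1.56 against 9.91 and 13.7.

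**Figure D4:**
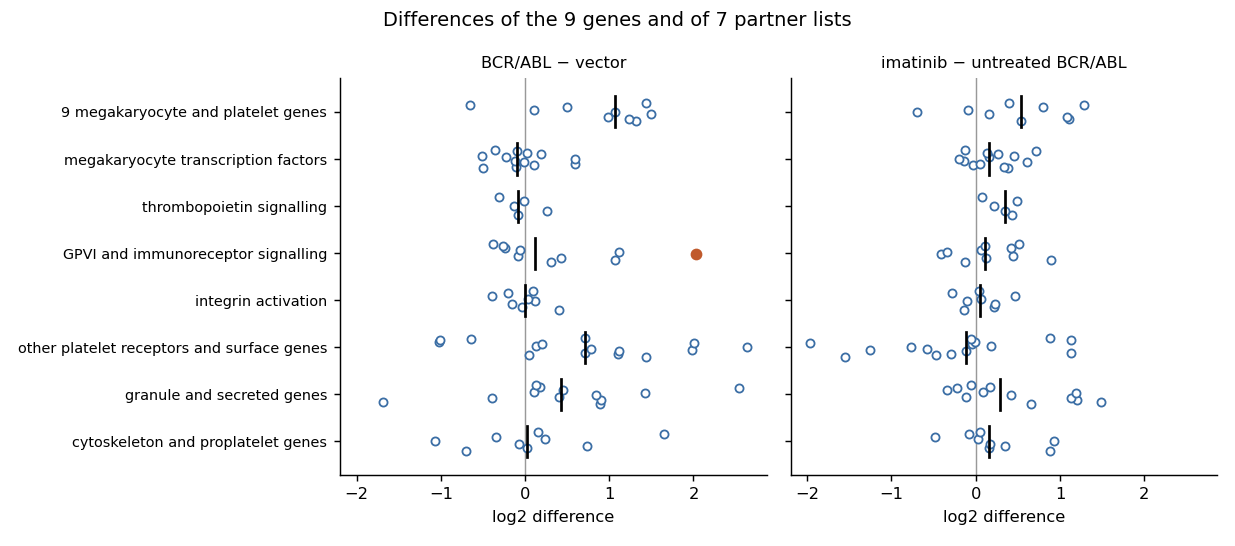
Log2 differences of the 9 genes and of the measured genes of 7 partner lists, for BCR/ABL minus vector and imatinib minus untreated BCR/ABL; circles are genes, vertical bars are medians, and the filled circle, Lat, is the gene that passed an adjusted p of 0.05. The 9 genes have a median of 1.07 in the left panel and 0.54 in the right, while the transcription factors have -0.09 and 0.16.

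The genes most like the 3 members with the highest mean level, Pf4, Itgb3 and Itga2b, were sought by the mean absolute difference of log2 levels over the 6 arrays, after each gene's mean over the arrays had been subtracted, among 2884 genes above the 50th percentile that ranged over at least 1 log2 unit. Dyrk3, Rxra, Lpcat2 and H1f2 were nearest to Pf4, at 0.08 to 0.10. Rnf180, Rec8, Slc18a2 and Prickle1 were nearest to Itgb3, at 0.11 to 0.17, and Pi16, Dmd, Rap1gap2 and Tecpr1 to Itga2b, at 0.14 to 0.17. For imatinib against vector these 12 genes differed by between 1.10 for H1f2 and 2.31 for Slc18a2, with adjusted p of 0.0932 or more.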

How the data were processed

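The deposited values are linear array intensities, 1 per probe set, made with Affymetrix Expression Console and MAS5 per the submitters' processing notes; no versions are given there. The 2% trimmed mean was 500 on each array. The design text names a whole-transcript array, but the probe set identifiers and their annotation are those of the 3-prime Mouse Genome 430 2.0 array, and which labelling was used is not settled. Of 45101 probe sets, 64 controls and 9160 without a symbol were left out; 34945 had 1 symbol and 932 several. The 11 probe sets of the members matched RefSeq by Entrez identifier with 0 changed symbols. Genome positions are given only for RefSeq promoters.

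Values were transformed to log2(intensity + 16), and quantile normalized because array medians differed by more than 0.1. Limma 3.58.1 in R 4.3.3 (lmFit, eBayes with trend) fitted all 6 arrays with a mean per group, leaving 3 residual degrees of freedom. Tests were two-sided with Benjamini-Hochberg adjustment over 35877 probe sets. The fit was tested on simulated data. Counts over genes used each gene's probe set with the highest mean. The number of arrays limits precision. Named genes were all members, any partner gene past the threshold, up to 4 per partner list by size of difference in BCR/ABL against vector, and up to 4 genes most like each of 3 members. Members and lists were chosen with earlier results of these data known. Alternatives were the normalization, the added constant, filters on dim probe sets, the variance prior, the replicate number as a block, averaged probe sets and leaving out each array.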

Additional observations from a re-analysis of the deposited data

How the results depend on the processing

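The count of members called was 0 in all 3 comparisons under every alternative but these: centring on array medians gave 1 for BCR/ABL against vector (Itgb3, adjusted p = 0.0254) and 3 for imatinib against vector, and in the last comparison an added constant of 1 and the filters at the 30th and 50th percentiles gave 2 each. The members' median for BCR/ABL against vector (1.07) was 0.91 without normalization and 1.24 with the constant 1, and 0.88 to 1.19 when 1 array was left out. For imatinib against untreated BCR/ABL (0.54) it was 0.33 with array medians, 0.65 without normalization and 0.67 under both filters, and 0.26 to 0.93 when 1 array was left out. For imatinib against vector (1.66) it was 1.79 without normalization and 1.93 with the constant 1, and 1.16 to 1.66 when 1 array was left out. The filters drop Gp6, and with it 1 of 9 genes.

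Counts of probe sets called, 22 for BCR/ABL against vector, 0 for imatinib against untreated and 16 for imatinib against vector, were 298, 1200 and 275 with array medians, 83, 3 and 78 with the constant 1, 189, 142 and 188 above the 30th percentile and 132, 211 and 181 above the 50th. BCR/ABL against vector and imatinib against vector gave 0 and 0 with a variance prior that ignored signal level, and 42 and 28 with a robust prior. Leaving out 1 array gave 0 (without BCR/ABL replicate 1 or 2) to 38 (without vector replicate 1) for BCR/ABL against vector, 0 for imatinib against untreated and 0 (without imatinib replicate 1 or either BCR/ABL array) to 50 (without vector replicate 2) for imatinib against vector. With the replicate number as a block the count for imatinib against vector was 9; it changed no call on a member. The labels give no pairing behind the numbers, and the deviations of same-numbered arrays correlated at 0.146 between imatinib and BCR/ABL, 0.16 between imatinib and vector and -0.08 between BCR/ABL and vector.

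Signs turned for Gp6, which lies at the floor. For imatinib against vector it was -0.0861 with array medians and -0.0117 to 0.0497 when 1 array was left out (below 0 without imatinib replicate 1 or vector replicate 2). When 1 array was left out it was -0.0074 to 0.2295 for BCR/ABL against vector (below 0 without BCR/ABL replicate 2) and -0.2089 to 0.0277 for imatinib against untreated (above 0 without BCR/ABL replicate 2). For imatinib against untreated, Ppbp was -0.70 to 1.512 when 1 array was left out (below 0 without imatinib replicate 1 or BCR/ABL replicate 1). There Hdc was -0.29 with array medians and -0.16 to 0.3245 when 1 array was left out (below 0 without imatinib replicate 1), and Ms4a2 was -0.067 with array medians. The cause was not tested, beyond the fewer probe sets or arrays that a filter or an omission leaves. When 1 array of a group is left out, the lone array is assumed to vary like the other groups.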
